A study of Mus musculus with 12 samples.

Results

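Of the 1632 cJun peaks called in Min6 insulinoma cells under the JNK inhibitor SP600125 (JNKi), 457 had no overlapping cJun peak in DMSO-treated cells and are described here as JNKi-only peaks. They made up 28.0% of the JNKi cJun list. They were chosen by the measured peak lists themselves: a peak was JNKi-only when it shared not even 1 bp with any of the 4960 cJun peaks of the DMSO list, and the other 1175 JNKi peaks are called shared. Each treatment contributed 1 cJun list and 1 H3K4me3 list, and the 4 lists held 44996 peaks in all. A peak entered a list when it was called in both biological replicates of that treatment and antibody.

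Min6 cells come from a mouse insulinoma and serve as a model for pancreatic β cells. In CUT&RUN, an antibody tethers a nuclease to its target in permeabilised cells, and the short DNA fragments released there are sequenced. Cells received either DMSO alone or SP600125 at 20 µM for 48 hours, and 550000 cells entered each reaction with an antibody against cJun, against trimethylated lysine 4 of histone H3 (H3K4me3) or of the IgG control type. All groups were the same cell line, with 2 replicates per treatment and antibody. H3K4me3 lay over start sites of 7 of 8 β-cell marker genes in both treatments, among them Ins2, Pdx1, Mafa and Iapp, and over 2 of 3 α-cell genes, including Gcg. None of 5 acinar or 3 immune marker genes carried it. No β- or α-cell marker gene had a JNKi-only cJun peak within 3 kb. Over all protein-coding genes the share was 1.07%, at which so few genes can all lack one.

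cJun is the founding member of the AP-1 family of transcription factors, which bind DNA as dimers of basic leucine zipper proteins. Dimers of Jun and Fos proteins recognise the palindromic site TGANTCA, and dimers of Jun with ATF proteins recognise the cyclic AMP response element (CRE). JNK phosphorylates cJun in its transactivation domain in response to stress, which raises the activity and stability of the protein. H3K4me3 marks the nucleosomes around active and poised start sites, so its presence at a cJun peak separates promoter-type chromatin from most distal elements.

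The sequences behind the strongest JNKi-only peaks with a recognised site are shown first, since the AP-1 element is the letter pattern that cJun itself is known to bind. An AP-1 site was TGAGTCA or its reverse complement TGACTCA, and a CRE was TGACGTCA, searched on both strands within 100 bp of the peak summit. Of the 457 JNKi-only peaks, 47 held an AP-1 site and 7 a CRE, and 1 held both, so 53 held either. The 6 highest JNKi-only peaks with an AP-1 site are given by the protein-coding gene with the nearest start site, on the plus strand of GRCm38, with the site in capitals and 30 bases on each side.
Slc35f5, chr1:125560668-125560734: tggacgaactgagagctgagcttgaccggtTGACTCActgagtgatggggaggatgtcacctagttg
4931440F15Rik, chr11:29839892-29839958: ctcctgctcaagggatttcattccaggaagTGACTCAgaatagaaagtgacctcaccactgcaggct
Samt2, chrX:154714141-154714207: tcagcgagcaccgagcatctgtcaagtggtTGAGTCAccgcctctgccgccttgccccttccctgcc
Abcc12, chr8:86350297-86350363: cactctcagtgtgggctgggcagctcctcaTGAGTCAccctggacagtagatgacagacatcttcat
Rel, chr11:23770737-23770803: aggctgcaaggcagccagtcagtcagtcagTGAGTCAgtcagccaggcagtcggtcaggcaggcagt
Dlgap2, chr8:14406704-14406770: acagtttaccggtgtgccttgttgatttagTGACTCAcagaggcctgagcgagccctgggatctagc

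The 4 highest JNKi-only peaks with a CRE follow in the same form, again on the plus strand of GRCm38 with the site in capitals. They are shown because the CRE is the element of Jun and ATF dimers, and the Mical2 sequence also holds an AP-1 match in its left flank.
Heca, chr10:17948183-17948250: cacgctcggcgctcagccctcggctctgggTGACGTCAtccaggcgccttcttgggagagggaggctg
Nfil3, chr13:53001747-53001814: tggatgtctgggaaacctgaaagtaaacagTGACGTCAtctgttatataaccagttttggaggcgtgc
Tex44, chr1:86434531-86434598: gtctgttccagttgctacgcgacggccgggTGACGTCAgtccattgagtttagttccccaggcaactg
Mical2, chr7:112400489-112400556: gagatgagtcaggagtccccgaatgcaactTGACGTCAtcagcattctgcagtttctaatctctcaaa

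The highest JNKi-only peak of all held neither element. It covered 220 bp of the promoter of Jund, which encodes the AP-1 protein JunD, and is printed whole from the plus strand of GRCm38. Capitals mark the 2 matches found in it to any of the 15 motifs searched, CACGCCA, which reads TNGCGTG on the other strand and is the core of the AhR response element, and TGACCCGGC, which fits the antioxidant response element (ARE) pattern TGACNNNGC.
Jund, chr8:70698503-70698722: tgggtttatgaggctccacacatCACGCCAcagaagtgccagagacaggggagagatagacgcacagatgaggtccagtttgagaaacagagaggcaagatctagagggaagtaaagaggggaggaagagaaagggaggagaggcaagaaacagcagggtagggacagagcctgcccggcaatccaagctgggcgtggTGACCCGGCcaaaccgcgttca

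A letter match is a description of the reference sequence and does not show that a protein occupied it. The ARE pattern lay within 100 bp of 9.63% of JNKi-only summits and in 9.71% of windows of the same 201 bp around protein-coding start sites. The AhR pattern lay in 4.81% and 4.29% of them. In tiles of the same length across the genome the ARE pattern lay in 5.30% and the AhR pattern in 1.36%. Shares against these backgrounds were not tested.

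JNKi-only peaks were mostly weak and narrow members of the JNKi list. Peaks were ranked by −log10 p of the deposited list, which is the value of the weaker replicate. The 457 had a median −log10 p of 5.16 (interquartile range 4.27 to 7.25), and the shared peaks one of 6.59. The median JNKi-only peak stood at percentile 35.8 of the JNKi list and the median shared peak at percentile 55.0. Median width was 478 bp against 685 bp. The ranges overlapped: JNKi-only peaks ran from 191 to 1926 bp and from 3.01 to 26.6 in −log10 p, and shared peaks from 191 to 4550 bp and from 3.01 to 160. These values come from the lists that chose the peaks and carry no test.

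**Figure D1:**
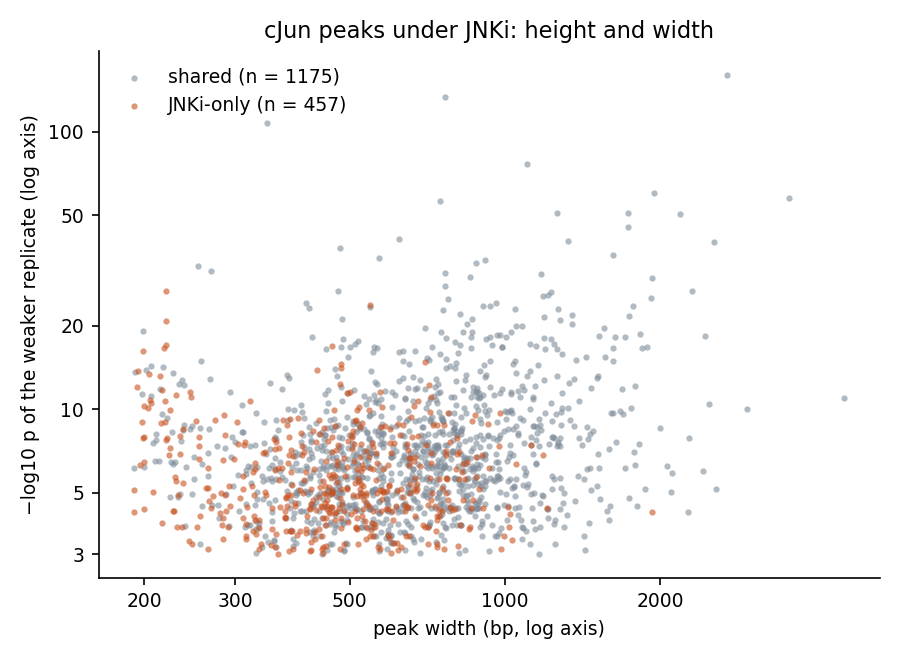
Each point is 1 cJun peak of the JNKi list, with its width in bp (horizontal, log axis) and the −log10 p of its weaker replicate (vertical, log axis), for 457 JNKi-only (orange) and 1175 shared (grey) peaks. JNKi-only peaks fill the lower part of the cloud up to a −log10 p of 26.6, and a separate strip of narrow peaks near 200 bp includes several of the highest.

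JNKi-only peaks were a smaller part of the higher quintiles. They were 42.2% of the lowest quintile of the list by −log10 p (138 peaks) and 13.8% of the highest (45 peaks). Agreement between replicates, as the irreproducible discovery rate (IDR) of the deposited list, was at most 0.05 for 28 of the 457 (6.13%), beside 15.6% of the whole JNKi list and 227 of the shared peaks. The 3791 peaks found only in DMSO were also low in their own list, with an IDR of at most 0.05 in 3.75%, a median −log10 p of 5.56 and a median percentile of 43.5. The median IDR of the JNKi-only peaks, 0.672, was the highest value the list held. First and second replicate mean the order of the columns in the deposited list, which carry no replicate number. In this order the −log10 p of the JNKi-only peaks had medians of 6.49 and 6.53, and the first was the higher in 222 of 457. Across these peaks the replicates' values had a Spearman correlation of 0.43, which is a description across regions that share 2 libraries.

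Narrow peaks were a larger part of the JNKi-only set. Of the JNKi-only peaks, 76 (16.6%) were under 300 bp wide, against 61 shared peaks (5.19%). They were 20 of the 45 JNKi-only peaks in the highest quintile, where 18 of the 282 shared peaks were as narrow. Both ends agreed between replicates within 20 bp at 32 of the 76 narrow JNKi-only peaks (42.1%), against 3.94% of the wider ones. Narrow shared peaks had the same feature, with agreement at 22 of 61, against 3.86% of the wider shared peaks. The narrowest peak of the JNKi list was 191 bp wide. The ends of a narrow peak have less room to differ, so this agreement is in part set by width. Values stratified by width are given beside the promoter, H3K4me3 and AP-1 comparisons below.

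The JNKi-only peaks nearest a DMSO cJun peak lay 109 bp away at Smarca2, which encodes a SWI/SNF remodelling ATPase, 171 bp away 13476 bp downstream of the start of Cct8l1, and 175 bp away 85316 bp upstream of Pax2. On the other side, the shared peaks with the smallest overlap shared 47 bp at Park7, 113 bp at Scn8a and 157 bp at Elmsan1. All of these except the Scn8a peak lay over H3K4me3 in both treatments. Between JNKi-only peaks and the closest DMSO cJun peak the median gap was 52780 bp, with an interquartile range of 12530 to 163512 bp.

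A DMSO cJun peak lay within 10 kb of 98 JNKi-only peaks, or 21.4% (95% Wilson interval 17.9 to 25.4). Within 1 kb the number was 34 and within 50 kb 216, or 47.3%. For comparison, a further DMSO peak besides the overlapping one lay within 10 kb of 30.7% of shared peaks and within 50 kb of 59.0%. JNKi-only peaks were also rarely close to each other, with 4 neighbouring pairs within 10 kb. They were found on 20 chromosomes, and the 8 peaks on the Y chromosome were all shared.

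The 25 highest JNKi-only peaks lay almost entirely at promoters. By the midpoint of the peak, 22 of them were within 1 kb of the start of a protein-coding gene, 16 of these upstream of it. The 25 ranked between 27 and 236 in the JNKi list, with −log10 p from 26.6 down to 11.1. All 25 lay over an H3K4me3 peak in both treatments, and 13 were under 300 bp wide. An AP-1 site lay near the summit of 1, at Slc35f5, and a CRE near that of 1, at Heca. IDR was at most 0.05 for 24 of them, and the nearest DMSO cJun peak was a median of 97524 bp away.

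**Figure D2:**
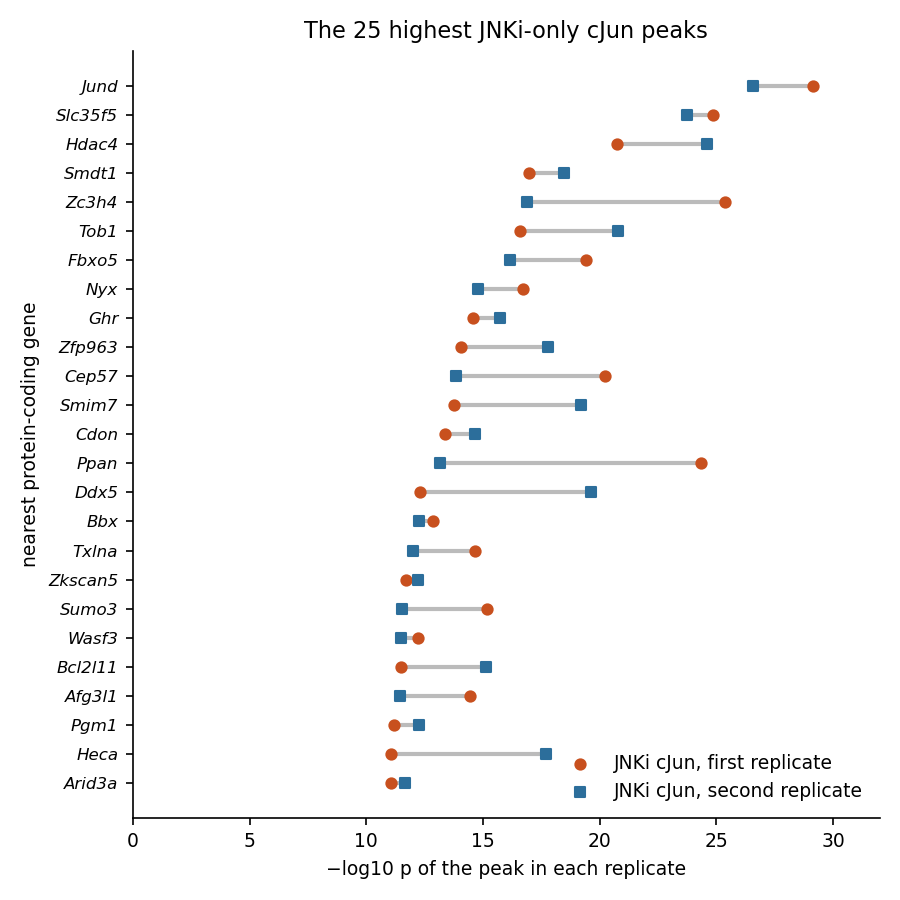
The −log10 p (horizontal axis) of the 25 highest JNKi-only cJun peaks in the first (orange circles) and second (blue squares) JNKi replicate, named by the nearest protein-coding start site and ordered by the weaker replicate. Both replicates exceed 11 at every peak because the peaks were chosen by the weaker value. The replicates lie farthest apart at Ppan, at 24.3 and 13.2.

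The 25 are grouped here by gene function for reading only, and no such share was compared with other genes. Several lay nearest to genes that encode regulators of transcription. The Jund peak, 337 bp upstream of the start, reached a −log10 p of 29.1 in the first replicate and 26.6 in the second. H3K4me3 peaks of 4078 bp in JNKi and 3549 bp in DMSO covered it, and the nearest DMSO cJun peak was 14043 bp away. At Hdac4, a class IIa histone deacetylase gene, a 220-bp peak lay 408 bp upstream of the start at chr1:92180640-92180859, with 20.7 and 24.6 in the replicates.

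Zc3h4, which encodes a zinc finger protein that limits transcription of noncoding RNA, carried a 463-bp peak 1358 bp upstream of its start, with 25.4 and 16.9. Peaks at the start sites of Bbx, an HMG-box gene, Arid3a, an ARID-domain gene, and the zinc finger genes Zfp963 and Zkscan5 had a weaker-replicate −log10 p between 11.1 and 14.1. The RNA helicase gene Ddx5 and the SUMO gene Sumo3 also belonged to the 25, at 12.3 and 11.6.

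Other high peaks lay at genes of growth control and signalling. The peak 200 bp upstream of Fbxo5, which encodes the inhibitor of the anaphase-promoting complex EMI1, was 199 bp wide and had 19.4 and 16.2 in the replicates. At Ghr, the growth hormone receptor gene, a 481-bp peak was centred 8 bp upstream of a start site, with 14.6 and 15.7, and its gap to a DMSO cJun peak, 3460 bp, was the smallest of the 25. At Bcl2l11, which encodes the pro-apoptotic BH3-only protein BIM, a 500-bp peak was centred 72 bp upstream of the start, with 11.5 and 15.1.

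The Hedgehog co-receptor gene Cdon, at 13.4 and 14.7, and the centrosomal gene Cep57, at 20.2 and 13.8, had peaks within 300 bp of a start. Genes of mitochondrial proteins were Smdt1, which encodes a subunit of the calcium uniporter, at 16.97 and 18.5, and Afg3l1, a protease gene, at 14.5 and 11.5. The others of the 25 lay at Slc35f5, Smim7, Ppan, Txlna, Wasf3, Pgm1 and Heca, and at a distance from Tob1 (50670 bp upstream of its start) and Nyx (4288 bp). Both replicates exceeded 11 at every one of the 25, which follows from their choice by the weaker replicate.

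Across all 457 peaks, promoters were the largest class. The midpoint was within 3 kb of a transcription start site of any gene in 229 JNKi-only peaks, or 50.1% (95% Wilson interval 45.5 to 54.7), against 39.2% of shared peaks (36.5 to 42.1) and 42.3% of the whole JNKi list. The odds ratio was 1.56 (95% interval 1.25 to 1.93, Benjamini-Hochberg adjusted p = 3.67e-04, Fisher's exact test, two-sided, over peaks). Of the remaining JNKi-only peaks, 118 lay in introns (25.8%), 104 between genes (22.8%) and 6 in exons (1.31%). The corresponding shares of shared peaks were 28.4%, 31.7% and 0.60%. Within 1 kb of a start site the counts were 206 of 457 and 353 of 1175, with an odds ratio of 1.91. Stratified by quintiles of width, the odds ratio for 3 kb was 1.46 (95% interval 1.156 to 1.834, Mantel-Haenszel estimate). When the comparison was made within peaks with and without JNKi H3K4me3, the odds ratio was 1.25 and the call was lost (95% interval 0.96 to 1.62, Mantel-Haenszel estimate). With the JNKi list limited to an IDR of at most 0.05, 24 of 28 JNKi-only and 106 of 227 shared peaks lay within 3 kb, with an odds ratio of 6.85.

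Around protein-coding start sites the 187 JNKi-only peaks within 1 kb were centred on the start itself, with a median position of −5 bp (interquartile range −191 to 167) and 95 of them upstream. For the 302 shared peaks the median was −29 bp (−261 to 176). Within 500 bp of the start lay 89.3% of the 187 and 81.5% of the 302. Protein-coding genes started within 1 kb on both strands at 20 JNKi-only peaks (4.38%) and at 25 shared peaks (2.13%). These positions were not tested.

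H3K4me3 accompanied most JNKi-only cJun peaks and did so in both treatments. In JNKi, 296 of 457 JNKi-only peaks, 64.8% (95% Wilson interval 60.3 to 69.0), overlapped an H3K4me3 peak, against 609 of 1175 shared peaks, 51.8% (49.0 to 54.7), and 55.5% of the whole list. The odds ratio was 1.71 (95% interval 1.37 to 2.14, adjusted p = 4.66e-05, two-sided Fisher's exact test). Against the DMSO H3K4me3 list the counts were 285 (62.4%) and 593 (50.5%), beside 53.8% of the whole list, with an odds ratio of 1.63 (1.30 to 2.03, adjusted p = 1.05e-04, the same exact test). Peaks called only in DMSO, the mirror set of 3791, overlapped JNKi H3K4me3 in 52.6% and DMSO H3K4me3 in 54.0% of cases, which is given without a test because the lists differ in size and height.

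Membership in the H3K4me3 lists hardly differed between treatments at these sites. Of the 457 peaks, 281 (61.5%) lay over H3K4me3 in both treatments, 15 (3.28%) in JNKi alone, 4 (0.88%) in DMSO alone and 157 (34.4%) in neither. For shared peaks the shares were 48.0%, 3.83%, 2.47% and 45.7%. So 19 of 457 sites without a DMSO cJun peak had an H3K4me3 peak in 1 treatment and not in the other.

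**Figure D3:**
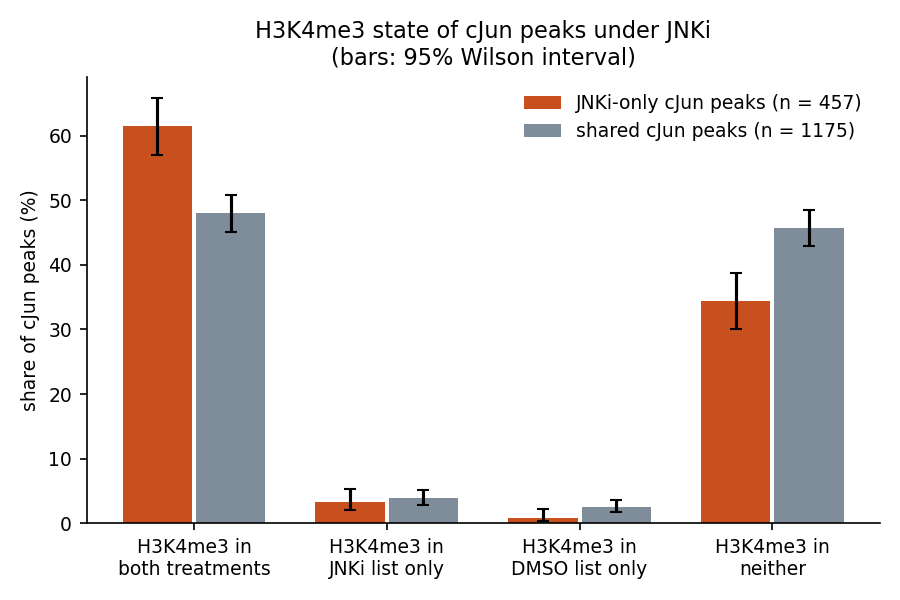
Share of cJun peaks (vertical axis, %) over an H3K4me3 peak in both treatments, in 1 list alone or in neither, for 457 JNKi-only (orange) and 1175 shared (grey) cJun peaks, with 95% Wilson intervals. JNKi-only peaks are the more often in the first class, 61.5% against 48.0%, and both sets have few peaks in the middle classes.

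The 281 sites with the mark in both treatments were promoter-like in other respects. Of these, 211 (75.1%) lay within 3 kb of a start site, the median distance to a protein-coding start was 312 bp, and the median GC content around the summit was 59.2%. The H3K4me3 peaks over them were broad, with medians of 2636 bp in JNKi and 2572 bp in DMSO. At shared sites of this kind the medians were 2573 and 2478 bp. The H3K4me3 peak was the wider one in JNKi at 178 of the 281 sites, by a median of 54 bp, and at 362 of 564 shared sites, by a median of 67 bp.

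The 15 sites with H3K4me3 in JNKi alone lay in introns (10) or between genes (5) and none within 3 kb of a start site. Their H3K4me3 peaks were small, with a median width of 531 bp. The highest of them by cJun −log10 p, after one near Nedd4l (10.5), were 46326 bp upstream of Kl (9.89), 6874 bp into Gsdme and 35199 bp into Coro1c (both 9.07). The 4 sites with H3K4me3 in DMSO alone were nearest to Usp9x, Cd300e, Shisa2 and Vps4a, with H3K4me3 peaks of a median width of 705 bp. Of these 19 sites, none held an AP-1 site near the summit. Over the whole peak, 6 of the 15 sites with H3K4me3 in JNKi alone and 1 of the 4 in DMSO alone held one.

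The 157 sites without H3K4me3 in either treatment had another profile. Only 18 (11.5%) were within 3 kb of a start site, 76 lay in introns and 61 between genes. The median distance to a protein-coding start was 42721 bp and the median GC content 47.8%. In width they resembled the promoter-type sites, with medians of 479 and 473 bp, and their median −log10 p was 4.95 against 5.45.

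H3K4me3 was most frequent among the highest JNKi-only peaks. From the lowest to the highest quintile of the list, 58.7%, 61.6%, 58.8%, 72.0% and 88.9% of JNKi-only peaks lay over JNKi H3K4me3. The corresponding shares of shared peaks were 50.8%, 51.4%, 43.9%, 51.6% and 59.9%. The Wilson intervals of the 2 sets did not overlap in the fourth and the highest quintile (61.4 to 80.5 against 45.4 to 57.8, and 76.5 to 95.2 against 54.1 to 65.5). Stratified by these quintiles, the odds ratio was 1.87 (95% interval 1.48 to 2.35, Mantel-Haenszel estimate). Stratified by quintiles of width it was 1.67 (1.32 to 2.11), and for DMSO H3K4me3 1.61 (1.27 to 2.03). All 28 JNKi-only peaks with an IDR of at most 0.05 lay over JNKi H3K4me3, and 27 over DMSO H3K4me3, against 138 of 227 shared peaks in JNKi.

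**Figure D4:**
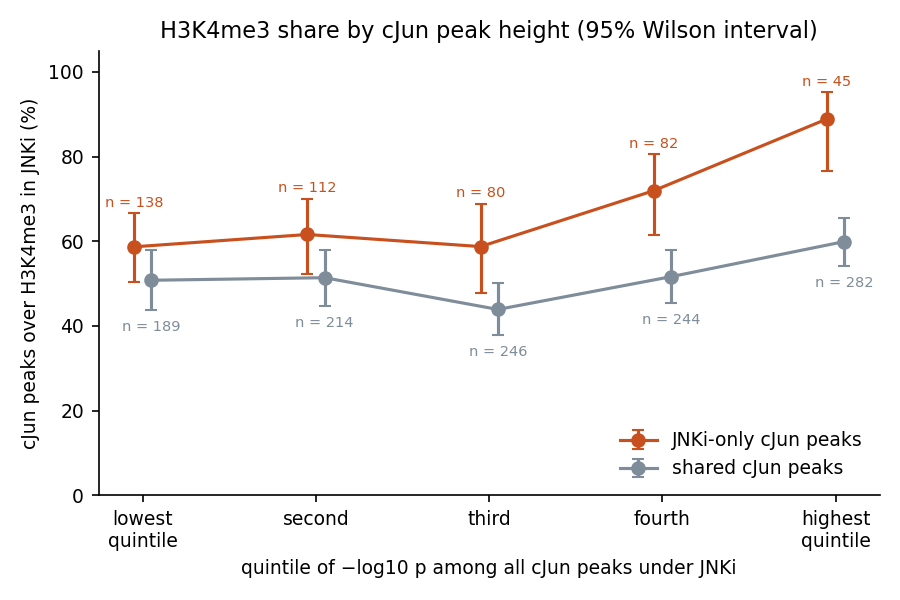
Share of cJun peaks over JNKi H3K4me3 (vertical axis, %) by quintile of −log10 p in the whole JNKi cJun list (horizontal axis), for JNKi-only (orange) and shared (grey) peaks, with 95% Wilson intervals and the number of peaks. The JNKi-only share is the higher in each quintile and reaches 88.9% in the highest, where it rests on 45 peaks.

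The contrast was present at narrow and at wider peaks. Of the 76 JNKi-only peaks under 300 bp, 55 (72.4%) lay over JNKi H3K4me3, against 30 of 61 narrow shared peaks (49.2%). Among peaks of 300 bp or more the shares were 63.3% (241 of 381) and 52.0% (579 of 1114). AP-1 sites near the summit were held by 2 of the 76 narrow JNKi-only peaks (2.63%) and by 45 of the 381 wider ones (11.8%). Among shared peaks the counts were 5 of 61 narrow (8.20%) and 145 of 1114 wider ones (13.0%).

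AP-1 sites were more frequent at JNKi-only summits than in the sequence around them. Of the 457 windows of 201 bp, 10.3% (95% Wilson interval 7.82 to 13.4) held the site, against 3.83% of 914 windows shifted by 2 kb to either side (odds ratio 2.88, 95% interval 1.83 to 4.53, adjusted p = 5.15e-05, two-sided Fisher's exact test). The site lay in 3.12% of tiles of the same length across the genome, in 2.80% of windows around protein-coding start sites and in 2.53% around JNKi H3K4me3 summits. Among the 28 JNKi-only peaks with an IDR of at most 0.05, 1 held a site, and the difference from 56 shifted windows, of which 1 held a site, did not pass (p = 1.00, Fisher's exact test). Where a JNKi-only peak held a site, its median distance from the summit was 45 bp.

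Shared summits held the AP-1 site in 12.8% of cases (10.98 to 14.8), and the whole JNKi list in 12.1%. The difference from JNKi-only summits did not pass the test (odds ratio 0.78, 95% interval 0.55 to 1.11, adjusted p = 0.392, Fisher's exact test). When 50% reciprocal overlap was needed to be shared, the summit comparison passed an unadjusted test (72 of 775 against 125 of 857, odds ratio 0.60, p = 0.00105, Fisher's exact test). With the JNKi list limited to an IDR of at most 0.05, 1 of 28 and 23 of 227 summits held a site, with an odds ratio of 0.33 that did not pass. Stratified by quintiles of width the odds ratio over the whole list was 0.86 (0.60 to 1.24). Counted over the whole peak, 107 JNKi-only peaks (23.4%) and 465 shared peaks (39.6%) held a site. That odds ratio was 0.47, and 0.62 when stratified by width (95% interval 0.47 to 0.80, Mantel-Haenszel estimate), so the wider search turned a difference that had not passed into one that did. Peaks called only in DMSO held a site in 28.6% of whole peaks and at 9.34% of summits, so a share below that of shared peaks was not particular to the JNKi-only set. The shares of DMSO-only peaks were not tested.

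The AP-1 share was lower over H3K4me3 in both sets, a contrast that was not tested. Among JNKi-only peaks it was 20.4% (32 of 157, 14.8 to 27.4) without H3K4me3 in either treatment and 5.34% (15 of 281, 3.26 to 8.62) with it in both. Among shared peaks the values were 19.6% and 6.74%. Within peaks with and without JNKi H3K4me3, the odds ratio of JNKi-only against shared was 0.92 (95% interval 0.65 to 1.31, Mantel-Haenszel estimate).

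**Figure D5:**
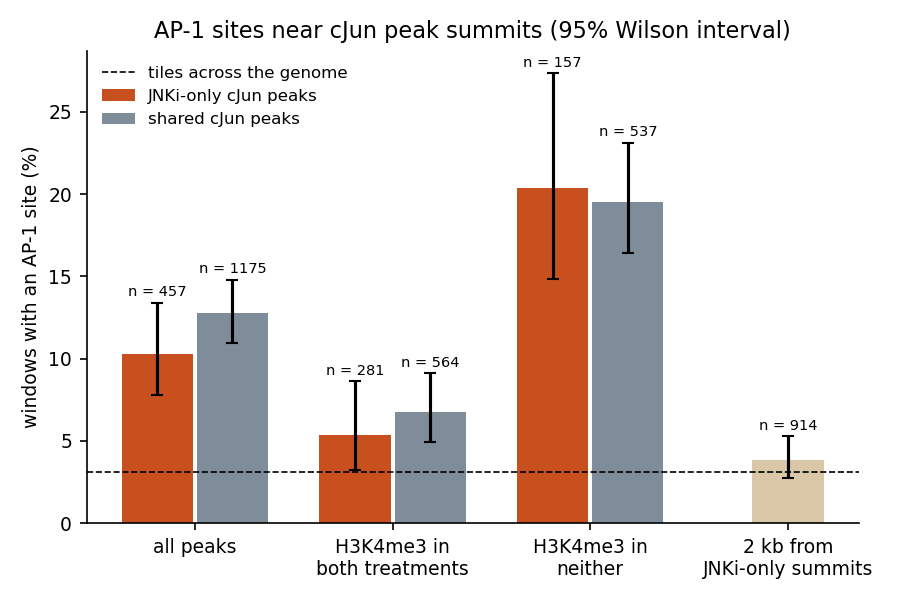
Share of 201-bp windows with an AP-1 site (vertical axis, %) at the summits of JNKi-only (orange) and shared (grey) cJun peaks, for all peaks and by H3K4me3 state, and in windows 2 kb from JNKi-only summits, with 95% Wilson intervals and the number of windows. The dashed line is the share in tiles across the genome, 3.12%, and the bars without H3K4me3, 20.4% and 19.6%, are the highest.

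Of the 6 AP-1 sequences printed above, 3 lay over H3K4me3 in both treatments. The Slc35f5 peak, 465 bp upstream of a gene of the SLC35 transporter family, reached 24.8 and 23.7 in −log10 p in the replicates, and its site was 39 bp from the summit. The Rel peak, 26 bp downstream of the start of the NF-κB subunit gene, had 15.8 and 9.40 and its site was 96 bp from the summit. The third was a peak 134763 bp upstream of Samt2, with 9.94 and 14.2.

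The other 3, nearest to 4931440F15Rik, Abcc12 and Dlgap2, had no H3K4me3 peak in either treatment. Their replicate values were 16.4 and 10.1, 9.69 and 12.1, and 8.94 and 9.11. The sites were 7, 7 and 91 bp from the summit. The nearest DMSO cJun peak was 146478, 11140 and 1068724 bp away. Lower in the list, AP-1 sites without H3K4me3 included a peak 839 bp upstream of Krt8, a keratin gene (−log10 p 7.25), one 49553 bp upstream of Errfi1, which encodes an inhibitor of EGF receptor signalling (6.97), and one 57252 bp into Dusp16, a MAP kinase phosphatase gene (6.73).

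CREs were rare. They lay at 1.53% of JNKi-only and 1.87% of shared summits, and at 1.78% of the whole list (odds ratio 0.82, 95% interval 0.35 to 1.92, adjusted p = 0.982, Fisher's exact test). The CRE was present in 0.11% of genome tiles and in 2.00% of windows at protein-coding start sites. The Heca peak, 250 bp upstream of the start, had replicate values of 11.1 and 17.7 and lay over H3K4me3 in both treatments. The peaks 20720 bp upstream of Nfil3, itself a basic leucine zipper gene (6.15 and 10.95), and 25434 bp into Mical2 (5.76 and 7.12) lay over none. The peak 8220 bp downstream of the Tex44 start (6.06 and 10.2) lay over the mark in both.

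None of 13 further motifs passed the adjusted test between JNKi-only and shared summits, and 1 had an unadjusted p under 0.05 by Fisher's exact test. That was the YY1 motif AAGATGGC, at 9 JNKi-only (1.97%) and 8 shared summits (0.68%), with an adjusted p of 0.0970. The GC box GGGCGG lay at 22.8% of JNKi-only and 18.5% of shared summits (adjusted p = 0.150, exact test), and at 41.6% of protein-coding start sites. The forkhead motif TGTTTAC lay at 2.41% and 4.34% (adjusted p = 0.206, exact test). The CCAAT box was found at 19.9% and 22.9%, and the PDX1-type homeodomain core TAATTA at 4.38% and 5.79%.

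The remaining motifs were at similar shares, namely E-box CACGTG, NEUROD1-type E-box CAGATGG, MAF core TGCTGAC, ETS CCGGAAG, NRF1 core GCATGCGC, the composite TGATGNAAT of ATF4 and C/EBP, and the ARE and AhR patterns given above. Their odds ratios lay between 0.76 for the E-box and 1.34 for ETS. The ARE pattern can overlap an AP-1 site by its first letters, and 7 JNKi-only windows held both. Median GC content within 100 bp of the summit was 54.2% and 52.2%, a difference of 1.99 percentage points that did not pass after adjustment (adjusted p = 0.0544, two-sided permutation test with 100000 permutations).

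Protein-coding genes with a JNKi-only peak within 3 kb of a start site numbered 233 of 21728, or 1.07%. Of these 233, 28 (12.02%, beside 7.76% of all protein-coding genes) also lay within 3 kb of a cJun peak of the DMSO list. Of the 224 genes in the 10 lists of AP-1 biology, islet function and stress, 10 (4.46%) had a JNKi-only peak at a start site, 27 (12.1%) had any JNKi cJun peak and 59 (26.3%) any DMSO cJun peak. Over all protein-coding genes the shares with any JNKi and any DMSO cJun peak were 2.87% and 7.76%, so the listed genes were above the background in each cJun list. The lists were chosen with results of these data known, so these counts are a description.

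In the AP-1 family list, Jund was the 1 of 11 genes with a JNKi-only peak. In the lists of 21 ATF and CREB genes, 24 JNK pathway genes and 16 AhR and NRF2 targets, no gene had one. The share over all protein-coding genes was 1.07%, at which lists of this size can hold none. Any JNKi cJun peak lay at 3, 4 and 0 genes of these lists, and any DMSO cJun peak at 5, 11 and 2. Of 22 immediate early genes, Ier2 and Per1 had a JNKi-only peak. At Ier2 it lay 1314 bp upstream of the start, with 7.45 and 8.05 in the replicates. At the clock gene Per1 it lay 118 bp upstream of the start, with 5.06 and 6.06. Ccne2, which encodes cyclin E2, was the 1 of 24 cell cycle genes, with a 219-bp peak 81 bp downstream of the start (8.98 and 9.12).

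Among genes of islet identity and secretion, 3 had a JNKi-only peak. At Nkx2-2, the 1 of 22 β-cell transcription factor genes, a 513-bp peak lay 688 bp upstream of the start at chr2:147186836-147187348 with 9.19 and 9.05, under H3K4me3 peaks of 14604 bp in JNKi and 15152 bp in DMSO. The 2 of 29 islet hormone and secretion genes were Chgb, which encodes a granin of the secretory granule, and Glp1r, the receptor of the incretin GLP-1. The Chgb peak lay 580 bp downstream of the start, with 8.08 and 8.52, 403778 bp from a DMSO cJun peak. The Glp1r peak, 374 bp upstream of the start, had 4.58 and 3.64.

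Among the chromatin regulators, Hdac4 had the peak described above. Of 23 genes of the unfolded protein response, Hsp90b1, the gene of an ER chaperone, was within 3 kb of a JNKi-only peak that lay nearer to Ttc41, with 8.95 and 3.60. The peaks at these named list genes all lay over H3K4me3 in both treatments, and none of them held an AP-1 site or CRE near its summit. The gene with the most JNKi-only peaks nearest to it was Maml3, a Notch coactivator, with 3 peaks at 51824 bp downstream and 44844 and 74631 bp upstream of its nearest start sites.

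The comparisons above are across peaks, which are not replicates of a treatment, and the p-values treat peaks from the same libraries as independent. Each treatment gave 1 cJun list that combined its replicates, so the number of JNKi-only peaks has no replicate error, and read depth per library was not used here. A peak missing from the DMSO list was not called in both DMSO replicates, which does not show that cJun was absent there.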

How the data were processed

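CUT&RUN peak lists covered 12 samples in 6 groups. The authors aligned reads to GRCm38 with Bowtie2 2.4.2, filtered with SAMtools 1.16, called peaks per replicate against IgG with MACS2 2.2.7.1 and combined replicates by IDR. Each deposited list gives −log10 p per replicate and merged, IDR as −log10, and a deposited score scaled from it. The merged value equals the weaker replicate's in 100% of peaks, and lists reach down to a −log10 p just above 3, uncut by IDR. The stated default peak calling uses a q-value cut-off, which such lists do not match, so the cut-off behind a called peak is unknown. Signal and q columns hold placeholders in 100% of peaks and were not used. H3K4me3 was used as presence and width only, because the weaker replicate's −log10 p can differ widely between peaks of like width (Rel: 398 in JNKi, 3.94 in DMSO). The paper states a general sequencing depth per sample. IgG libraries, reads and coverage were not analysed here, so the depth that each library reached is unknown.

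Overlap required 1 bp. Positions are 1-based on GRCm38 with GENCODE vM21 basic start sites, and motifs were read from the GRCm38 reference. Percentages carry 95% Wilson intervals, which cover counting error only. Fisher's exact tests, Mantel-Haenszel tests (statsmodels 0.14.6) and a permutation test of medians (SciPy 1.17.1, numpy 2.4.6) ran in Python 3.11.15, with Benjamini-Hochberg adjustment over 20 tests. Overlap, motif and test code was checked on simulated data. Named are the 25 highest JNKi-only peaks, those within 3 kb of genes of the 10 lists, the highest 6 with AP-1 and 4 with CRE sites, and the 3 on each side of the overlap rule. The peaks named for H3K4me3 in 1 treatment, the further AP-1 examples (Krt8, Errfi1, Dusp16) and Maml3 were chosen after their values were seen. A withheld item of the named set is not reported here. The peaks, lists and motifs were chosen with earlier results of these data known.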

Additional observations from a re-analysis of the deposited data

How the results depend on the processing

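The number of JNKi-only peaks depended most on the overlap rule and on IDR. It was 95 with both cJun lists limited to an IDR of at most 0.05, 28 with only the JNKi list limited, 775 when 50% reciprocal overlap was needed to be shared, 719 when summits had to be within 200 bp, and 432 when a gap of up to 500 bp counted as shared. Alternatives were judged by an unadjusted p of at most 0.05. The H3K4me3 odds ratios kept their direction and passed in each of 9 alternatives per treatment, from 1.33 to 36.8 in JNKi and from 1.31 to 18.7 in DMSO. The highest values rest on the 28 peaks of low IDR (in JNKi with 0.5 added to each count, since all 28 carried the mark), and the limit of H3K4me3 itself to an IDR of at most 0.05 also drops some of its strongest peaks. The promoter odds ratio ran from 1.23 to 6.85 and passed in 9 of 10, at 50% reciprocal overlap with p = 0.0448 (Fisher's exact test), and was 1.25 (95% interval 0.96 to 1.62) within H3K4me3 classes. The AP-1 odds ratio passed at 50% reciprocal overlap (0.60), over whole peaks (0.47) and over whole peaks within width quintiles (0.62), and was 0.33 at low IDR, where it did not pass. The CRE odds ratio, never past the test, turned to 1.36 at low IDR and to 1.08 over whole peaks. The GC difference shrank to 0.50 percentage points at 50% reciprocal overlap and 0.99 within 50 bp of the summit, with p = 0.728 and 0.399 in the same permutation test, and was 5.47 points at low IDR (p = 0.0267, permutation test). AP-1 sites against shifted windows had an odds ratio of 2.04 in the 28 peaks of low IDR, where 1 summit held a site, and no longer passed (p = 1.00, Fisher's exact test). At low IDR 29 genes had a JNKi-only peak at a start site. The share with a DMSO peak nearby was 47.3% within 50 kb and 7.44% within 1 kb. The alternatives without the 250 highest peaks, within H3K4me3 classes and of whole peaks within width quintiles were added after seeing the data. No paired analysis was possible because the lists merge the replicates and their columns carry no replicate number, and leaving out a replicate was not possible for the same reason.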
